A study of Mus musculus with 12 samples.

Results

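The genes described here are 10 markers of microglia, the resident macrophages of the brain: Cx3cr1, Csf1r, Aif1, P2ry12, Tmem119, Itgam, Trem2, Tyrobp, C1qa and C1qb. All probe sets to which the platform annotation gave one of these symbols as the only gene were taken, which made 16 probe sets of 45037 tested and 10 genes of 18193. Cx3cr1 and Trem2 had 2 probe sets each, Csf1r and C1qb 3 each, and the others 1. A mean log2 signal of at least 6 over the 12 arrays was reached by 15 of the 16, and the exception was Trem2 probe set 1, with a mean of 4.48 (probe sets of a gene are numbered in order of their identifier).

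RNA came from adult female mice of 38 to 40 weeks on a C57BL/6 background, back-crossed for 6 generations, and each of 4 groups had 3 Affymetrix arrays of whole tissue RNA: APPsα-DM hippocampus, APLP2-KO hippocampus, APPsα-DM prefrontal cortex and APLP2-KO prefrontal cortex. APPsα-DM mice (APPα/α APLP2-/-) carry an edited App on both alleles and lack APLP2, and APLP2-KO mice (APLP2-/-) lack APLP2 and have an unedited App, so the lack of APLP2 was shared by all 4 groups and no wild-type mouse was analysed here. As the edited allele is generally described, it leaves only APPsα, the secreted ectodomain of the amyloid precursor protein. The comparison of the genotypes addresses what is different in brain RNA when the membrane-bound protein and the other products of App are missing.

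The survival of microglia depends on the receptor Csf1r and its ligands Csf1 and Il34, these cells are in contact with neurons through Cx3cr1 and its neuronal ligand Cx3cl1, and they sense nucleotides through P2ry12. The receptor Trem2, which signals through the adaptor Tyrobp (DAP12), and the complement component C1q, whose chains include C1qa and C1qb, are known for the response of these cells to amyloid and for the tagging of synapses. In bulk tissue, fewer microglia and less RNA per microglial cell cannot be told apart.

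PU.1, encoded by Spi1, is the transcription factor on which the microglial lineage depends. Its core motif GAGGAA was searched on both strands, with the composite motif of PU.1 and its interferon-regulatory partners (GGAA, any 2 bases, then GAAA), in the RefSeq promoters of GRCm38.p6 (250 bases before to 50 after the start). The table held promoters for 6 of the 10 genes: Cx3cr1, Aif1, P2ry12, Itgam, Trem2 and C1qb. GAGGAA or its reverse complement TTCCTC was found in 4 of the 6, namely in Aif1, Itgam, Trem2 and C1qb, against 28.3% of 32851 promoters of that table. The composite motif, whose first letters can overlap the core motif, was found in none of the 6, against 2.72% of all promoters. Below are shown 2 promoters with the core motif, on either strand in capitals, those of Aif1, the gene that passed between the tissues, and of C1qb, and the 2 promoters without it. The matches are descriptions of letters, not of sites.
Aif1 promoter, chr17:35176003-35176302, minus strand: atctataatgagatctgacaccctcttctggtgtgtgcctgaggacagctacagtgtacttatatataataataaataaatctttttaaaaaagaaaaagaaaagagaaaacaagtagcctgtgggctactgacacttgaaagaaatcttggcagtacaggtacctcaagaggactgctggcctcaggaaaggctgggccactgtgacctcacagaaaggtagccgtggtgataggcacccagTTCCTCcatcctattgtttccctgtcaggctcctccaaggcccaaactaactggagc
C1qb promoter, chr4:136886151-136886450, minus strand: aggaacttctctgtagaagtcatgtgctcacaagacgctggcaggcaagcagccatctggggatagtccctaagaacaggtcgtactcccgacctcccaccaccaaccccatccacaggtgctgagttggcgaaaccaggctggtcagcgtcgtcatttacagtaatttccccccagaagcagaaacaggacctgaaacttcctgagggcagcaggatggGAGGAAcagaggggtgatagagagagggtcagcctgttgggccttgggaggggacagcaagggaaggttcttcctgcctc
Cx3cr1 promoter, chr9:120068247-120068546, minus strand: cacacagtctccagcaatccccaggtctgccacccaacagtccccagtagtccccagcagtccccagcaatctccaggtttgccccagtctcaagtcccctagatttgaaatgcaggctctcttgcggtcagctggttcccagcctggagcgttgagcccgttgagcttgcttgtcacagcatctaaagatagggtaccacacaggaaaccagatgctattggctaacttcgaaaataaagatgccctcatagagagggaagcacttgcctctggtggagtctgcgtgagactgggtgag
P2ry12 promoter, chr3:59262936-59263235, minus strand: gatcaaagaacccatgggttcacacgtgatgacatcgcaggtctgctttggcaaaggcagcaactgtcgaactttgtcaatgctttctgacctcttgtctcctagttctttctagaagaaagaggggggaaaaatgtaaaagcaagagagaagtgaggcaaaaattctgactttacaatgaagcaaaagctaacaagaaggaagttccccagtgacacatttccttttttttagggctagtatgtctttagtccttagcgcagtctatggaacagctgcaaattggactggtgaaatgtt

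Within groups, arrays had correlations of 0.9947 to 0.9972 (12 pairs), and the array medians lay between 5.86 and 5.91 log2 units. App probe set 1 read 7.70 to 8.20 on the APPsα-DM arrays and 12.49 to 12.77 on the APLP2-KO arrays, which matches the genotype labels. The tissue labels were matched by lists of neuronal markers: the mean log2 signal of 10 hippocampal neuron genes was 9.05 to 9.37 in hippocampus and 6.29 to 6.49 in cortex. The cortex pieces also held striatal genes (9 genes, 7.38 to 7.75 in hippocampus and 9.43 to 10.10 in cortex). Choroid plexus signal varied within groups. Ttr probe set 2, of the gene for transthyretin made by that tissue, read 14.18 and 14.03 on APPsα-DM cortex 2 and APLP2-KO cortex 3 but 8.20 to 9.42 on the other cortex arrays, and the calls between the tissues were made again without these 2 arrays. APPsα-DM hippocampus 1 stood apart in vessel and meningeal genes, with a mean of 8.84 over 10 smooth muscle and leptomeningeal genes against 7.40 to 7.89 on the other arrays.

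**Figure D1:**
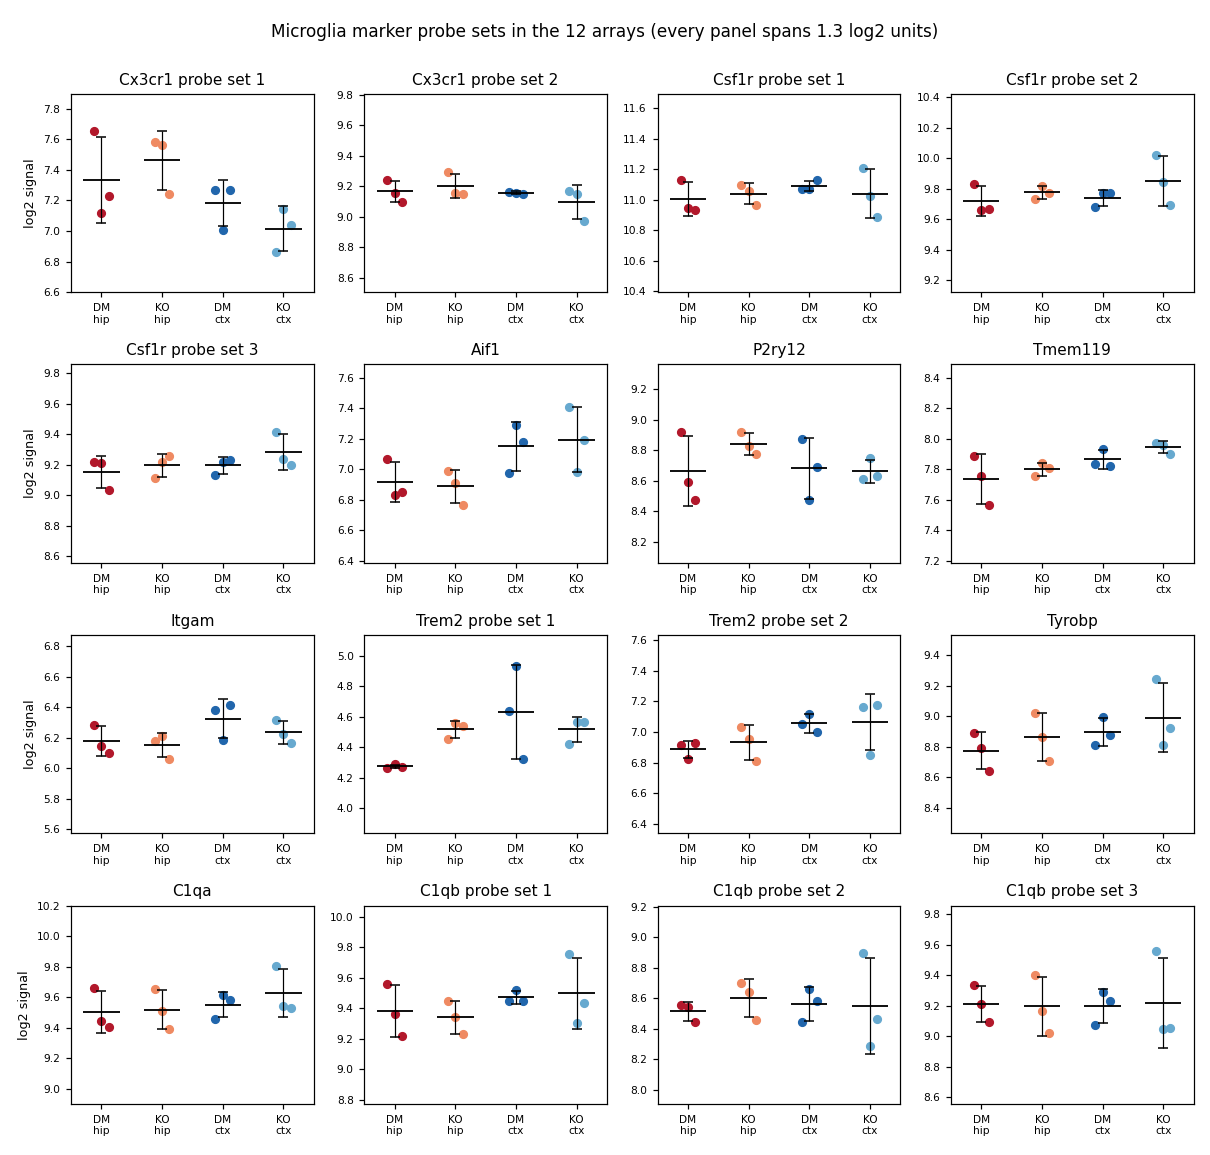
Log2 signal of the 16 probe sets of the 10 microglia marker genes, one panel each. DM is APPsα-DM and KO is APLP2-KO, hip is hippocampus and ctx prefrontal cortex; points are arrays, horizontal lines group means and bars ± 1 SD (n = 3), and the genotypes overlap in nearly every panel while Aif1 sits lower and Cx3cr1 probe set 1 higher in hippocampus.

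No microglia marker differed detectably between the genotypes in either tissue. In hippocampus, 0 of 16 probe sets passed an adjusted p of 0.05 in limma's moderated test (background 0.00888% of all probe sets) and 0 of 16 had an unadjusted p under 0.05 (background 4.11%). In cortex, 0 of 16 passed (background 0.00888%) and 0 of 16 had an unadjusted p under 0.05 (background 4.5%). Taking for each gene the probe set with the highest mean, the median difference of the 10 genes, APPsα-DM minus APLP2-KO, was -0.04 log2 units in hippocampus and -0.02 in cortex, beside -0.003 and 0.004 over all probe sets. In hippocampus 3 of the 10 genes were above 0 and 7 below, and in cortex 4 were above and 6 below.

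The size of a difference that these 12 arrays leave possible is given by the 95% intervals. Over the 10 genes they reached from -0.44 to 0.29 in hippocampus, which is 0.738 to 1.22 times the signal in APLP2-KO, and from -0.35 to 0.28 in cortex, which is 0.786 to 1.21 times. The difference between the genotype effects, hippocampus minus cortex, also passed for 0 of 16 probe sets (0% of all probe sets passed; 0 of 16 had an unadjusted p under 0.05, background 3.79%), with differences between -0.36 and 0.07. Averaged over the cortex and hippocampus arrays of the same replicate number, 0 of 16 passed (background 0.00888%), and 0 of 16 had an unadjusted p under 0.05 (background 4.03%).

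**Figure D2:**
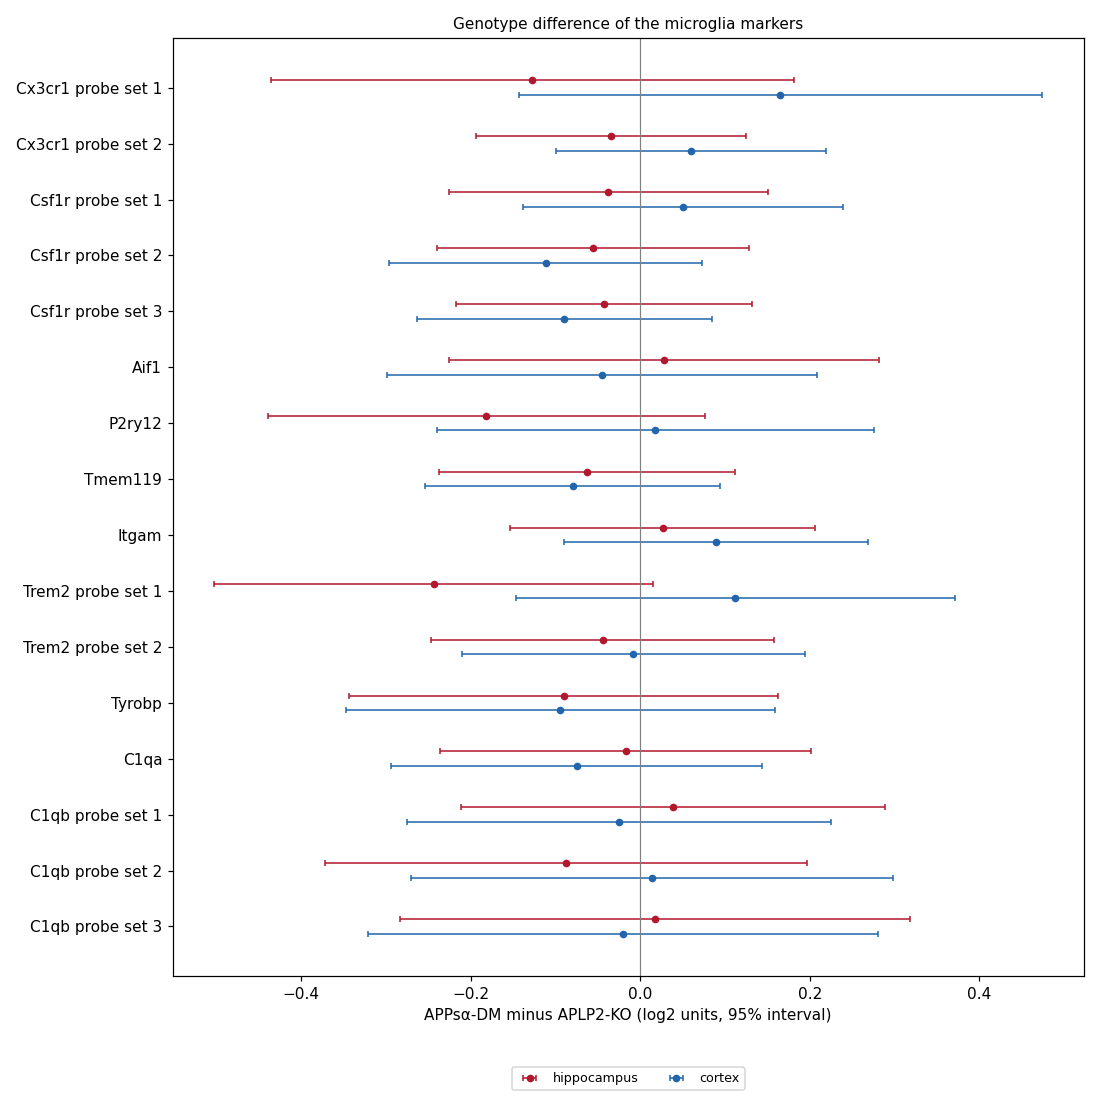
Difference of each microglia probe set between the genotypes, APPsα-DM minus APLP2-KO, in log2 units, in hippocampus (red, above) and cortex (blue, below). Points are limma estimates and bars 95% intervals; every interval includes 0, from -0.50 to 0.32 in hippocampus and from -0.35 to 0.47 in cortex.

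Few of the markers passed between the tissues. Their median absolute difference, averaged over the genotypes, was 0.12 log2 units for the 10 genes beside 0.09 over all probe sets. Averaged over the genotypes, 1 of 16 probe sets passed the threshold: Aif1 was lower in hippocampus (21% of all probe sets passed, 10.7% as lower). At an unadjusted p under 0.05 there were 4 of 16 (background 32.1%), and 0 of 16 had hippocampus and cortex arrays that did not overlap (background 13.6%). The difference, hippocampus minus cortex, was below 0 for 12 of the 16 probe sets and for 8 of the 10 genes, with a median of -0.12 over the 10 genes beside -0.01 over all probe sets. Within APPsα-DM 0 of 16 passed (background 10.6%), with 1 of 16 at an unadjusted p under 0.05 (background 22.9%), 2 of 16 without overlap (Trem2 probe sets 1 and 2, lower, background 27.4%) and a median of -0.11. Within APLP2-KO 0 of 16 passed (background 12.6%), with 2 of 16 at an unadjusted p under 0.05 (background 24.6%), 3 of 16 without overlap (Cx3cr1 probe set 1 and P2ry12, higher, and Tmem119, lower, background 30.2%) and a median of -0.12. These shares were below those of all probe sets. In the averaged contrast Cx3cr1 and P2ry12 lay above 0, by at most 0.08, and the other genes below. In APPsα-DM 1 of the 10 genes lay above 0 and in APLP2-KO 3. Whether the genes differed from each other was not tested.

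**Figure D3:**
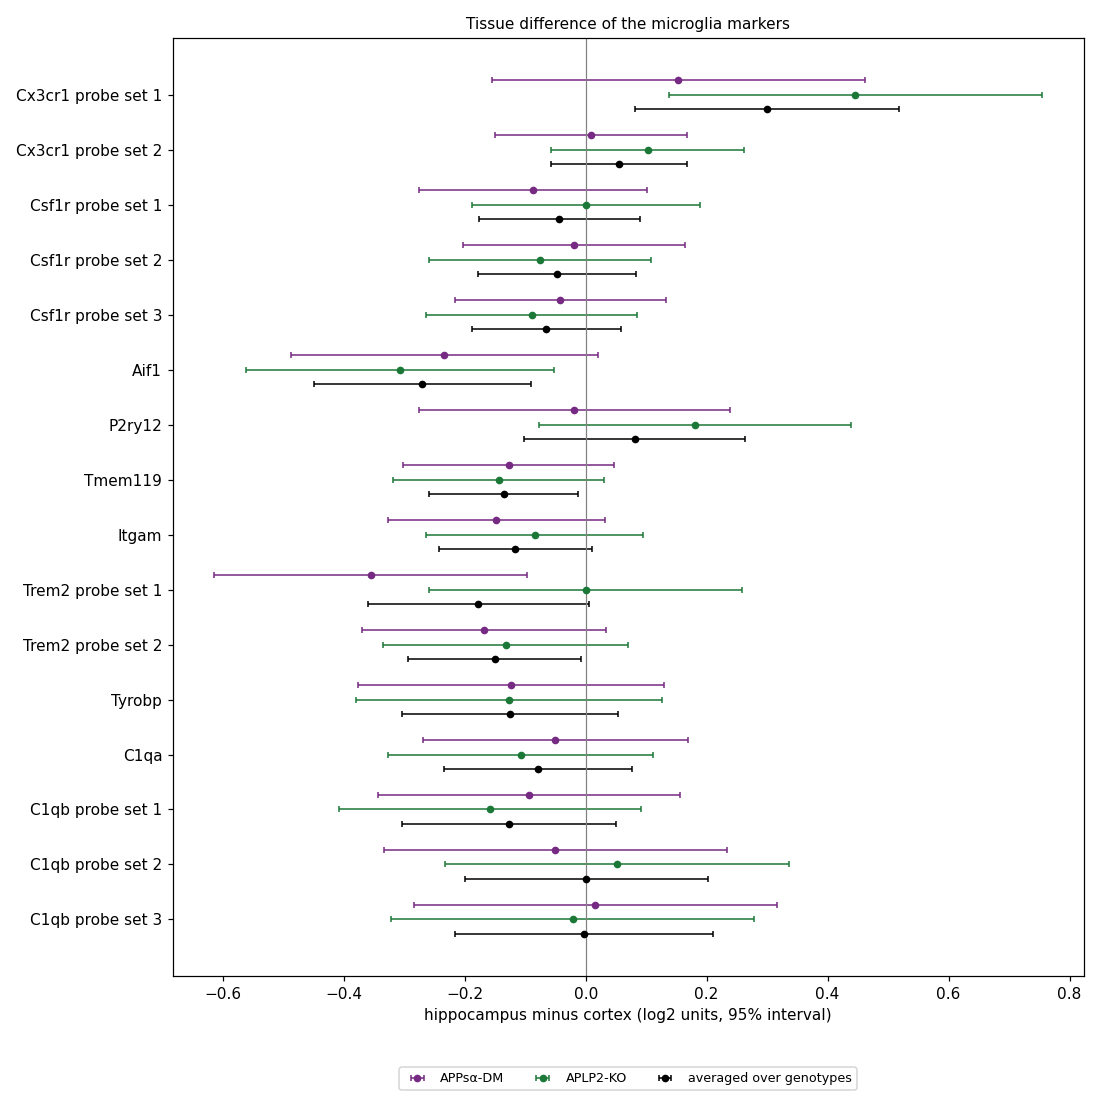
Difference of each microglia probe set between the tissues, hippocampus minus cortex, in log2 units, in APPsα-DM (purple), APLP2-KO (green) and averaged over the genotypes (black). Points are limma estimates and bars 95% intervals; averaged, Aif1 at -0.27 passed the threshold, and Cx3cr1 probe set 1 at 0.30 had an adjusted p of 0.0524.

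Aif1 (chromosome 17) encodes IBA1, the actin- and calcium-binding protein by which microglia are commonly stained. Its log2 signal was 7.07, 6.83 and 6.85 in APPsα-DM hippocampus and 6.99, 6.91 and 6.77 in APLP2-KO hippocampus, against 6.98, 7.29 and 7.18 in APPsα-DM cortex and 7.41, 6.98 and 7.20 in APLP2-KO cortex. Hippocampus lay below cortex in both genotypes, but the highest hippocampus array of each genotype overlapped the lowest cortex array. The averaged difference was -0.27 ± 0.08 (SE), 1.21-fold lower in hippocampus, with an adjusted p of 0.0346. Within a genotype it was -0.23 ± 0.12 in APPsα-DM (adjusted p = 0.262) and -0.31 ± 0.12 in APLP2-KO (adjusted p = 0.118, and 0.0483 without APLP2-KO cortex 2).

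The Aif1 call was narrow. Removal of any one of 8 arrays ended it. In hippocampus these were APPsα-DM 2 (adjusted p = 0.0734) and 3 (0.0797) and APLP2-KO 2 (0.0607) and 3 (0.0837). In cortex they were APPsα-DM 2 (adjusted p = 0.0821) and 3 (0.0672) and APLP2-KO 1 (0.0762) and 3 (0.0639). Without the 2 cortex arrays of high Ttr the difference was -0.23 (adjusted p = 0.128), and with a choroid plexus score as covariate it was -0.31 (adjusted p = 0.0520). Over all 20 alternatives the difference stayed between -0.32 and -0.22. Between the genotypes Aif1 differed by 0.03 ± 0.12 in hippocampus and by -0.05 ± 0.12 in cortex.

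Cx3cr1 (chromosome 9) encodes the receptor for the neuronal chemokine Cx3cl1. Probe set 1 read 7.65, 7.12 and 7.23 in APPsα-DM hippocampus and 7.58, 7.56 and 7.24 in APLP2-KO hippocampus, against 7.27, 7.01 and 7.27 in APPsα-DM cortex and 6.86, 7.15 and 7.04 in APLP2-KO cortex. In APPsα-DM the tissues overlapped, and in APLP2-KO all hippocampus arrays were above all cortex arrays. The difference was 0.15 ± 0.14 in APPsα-DM (adjusted p = 0.579), 0.45 ± 0.14 in APLP2-KO (1.36-fold, adjusted p = 0.0613) and 0.30 ± 0.10 averaged (adjusted p = 0.0524). The difference of these tissue effects, APPsα-DM minus APLP2-KO, was -0.29 ± 0.20 and did not pass. Cx3cr1 probe set 2 lay nearer to 0, with differences of 0.01 ± 0.07 in APPsα-DM and 0.10 ± 0.07 in APLP2-KO.

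Cx3cr1 probe set 1 lay just outside the threshold, and several alternatives put it past. In APLP2-KO the adjusted p was 0.0469 after renewed quantile normalization, 0.0359 when dim probe sets were left out, 0.0416 with an intensity trend and robust variances, 0.0108 with array weights and 0.0435 with only the arrays compared. Without hippocampus array 3 of APLP2-KO it was 0.0373 (difference 0.56), and without array 1 or 2 of APPsα-DM hippocampus, which share in the variance estimate, it was 0.0233 or 0.04996. The averaged difference passed under 4 of those alternatives too, at adjusted p-values of 0.0292 to 0.0466, and at 0.0285 without APLP2-KO hippocampus 3 and 0.0269 without APPsα-DM hippocampus 2. Genotype differences of this probe set were -0.13 ± 0.14 in hippocampus and 0.17 ± 0.14 in cortex.

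P2ry12 (chromosome 3), the ADP receptor that guides microglial processes, read 8.92, 8.59 and 8.48 in APPsα-DM hippocampus and 8.92, 8.83 and 8.78 in APLP2-KO hippocampus. In cortex it read 8.88, 8.48 and 8.69 in APPsα-DM and 8.61, 8.75 and 8.63 in APLP2-KO. The tissues overlapped in APPsα-DM, with a difference of -0.02 ± 0.12, and did not in APLP2-KO, where hippocampus was above cortex by 0.18 ± 0.12 (adjusted p = 0.401). APPsα-DM minus APLP2-KO was -0.18 ± 0.12 in hippocampus, the lowest of the 10 genes, with an interval of -0.44 to 0.08. Without APPsα-DM hippocampus 1 that difference was -0.31, still short of the threshold.

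Csf1r (chromosome 18), the receptor on whose signal microglial survival rests, did not pass in any comparison. Probe set 1 read 11.13, 10.94 and 10.93 in APPsα-DM hippocampus and 11.10, 11.06 and 10.96 in APLP2-KO hippocampus, against 11.07, 11.07 and 11.13 in APPsα-DM cortex and 11.21, 11.03 and 10.89 in APLP2-KO cortex. All groups overlapped. Genotype differences of its 3 probe sets were -0.06 to -0.04 in hippocampus and -0.11 to 0.05 in cortex, and tissue differences averaged over the genotypes were -0.07 to -0.04. Csf1r probe set 3 was the 1 probe set of 16 whose averages per replicate number did not overlap between the genotypes (-0.07 ± 0.05, lower in APPsα-DM, background 9.13%), and it did not pass.

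Tmem119 (chromosome 5), a membrane protein that marks resident microglia, read 7.89, 7.76 and 7.56 in APPsα-DM hippocampus and 7.75, 7.84 and 7.81 in APLP2-KO hippocampus, against 7.84, 7.93 and 7.82 in APPsα-DM cortex and 7.97, 7.96 and 7.90 in APLP2-KO cortex. In APPsα-DM the tissues overlapped, since hippocampus 1 lay among the cortex arrays, and in APLP2-KO all hippocampus arrays were below all cortex arrays. The averaged tissue difference was -0.14 ± 0.06 (adjusted p = 0.117), and without APPsα-DM hippocampus 1 it was -0.17 (adjusted p = 0.0404). Genotype differences were -0.06 ± 0.08 in hippocampus and -0.08 ± 0.08 in cortex.

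Itgam (chromosome 7) encodes CD11b, a chain of complement receptor 3. It read 6.29, 6.15 and 6.10 in APPsα-DM hippocampus and 6.18, 6.21 and 6.06 in APLP2-KO hippocampus, against 6.38, 6.18 and 6.41 in APPsα-DM cortex and 6.32, 6.22 and 6.17 in APLP2-KO cortex. The signals were near the filter value of 6 and overlapped between all groups, with an averaged tissue difference of -0.12 ± 0.06 (adjusted p = 0.196). Its genotype differences, 0.03 ± 0.08 in hippocampus and 0.09 ± 0.08 in cortex, made it the only one of the 16 probe sets above 0 in both tissues.

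Trem2 (chromosome 17), the lipid-sensing receptor, had a bright and a dim probe set that did not move alike. Probe set 2, the brighter, read 6.92, 6.82 and 6.93 in APPsα-DM hippocampus and 7.03, 6.95 and 6.81 in APLP2-KO hippocampus, against 7.05, 7.12 and 7.00 in APPsα-DM cortex and 7.17, 6.85 and 7.18 in APLP2-KO cortex. The tissues did not overlap in APPsα-DM and did in APLP2-KO. Its averaged tissue difference was -0.15 ± 0.07 (adjusted p = 0.134), and -0.20 (adjusted p = 0.0239) without APLP2-KO cortex 2. Its genotype differences were -0.04 ± 0.09 in hippocampus and -0.01 ± 0.09 in cortex.

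Trem2 probe set 1 read 4.26, 4.29 and 4.27 in APPsα-DM hippocampus and 4.45, 4.56 and 4.54 in APLP2-KO hippocampus. It was the only probe set of the 16 whose arrays did not overlap between the genotypes within a tissue: hippocampus gave 1 of 16 (background 9.88%) and cortex 0 of 16 (background 8.73%). The difference was -0.24 ± 0.12 (unadjusted p = 0.0626) and had no counterpart in probe set 2. In APPsα-DM cortex it read 4.64, 4.93 and 4.32, a wide spread, and in APLP2-KO cortex 4.42, 4.57 and 4.56. Within APPsα-DM the tissue difference was -0.36 ± 0.12 (adjusted p = 0.0826). It passed without APPsα-DM cortex 3 (-0.51, adjusted p = 0.00491) and with the choroid plexus covariate (-0.47, adjusted p = 0.0402), while in APLP2-KO it was 0.00 ± 0.12. Averaged it was -0.18 ± 0.08 (adjusted p = 0.169), and -0.26 (adjusted p = 0.0133) without APPsα-DM cortex 3. The deposited values carry no detection call, and how much of the signal is Trem2 RNA was not tested.

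Tyrobp (chromosome 7), the adaptor of Trem2, read 8.89, 8.79 and 8.64 in APPsα-DM hippocampus and 9.02, 8.86 and 8.71 in APLP2-KO hippocampus, against 8.81, 8.998 and 8.88 in APPsα-DM cortex and 9.24, 8.81 and 8.92 in APLP2-KO cortex. All groups overlapped. Its differences were -0.09 ± 0.12 between the genotypes in either tissue and -0.12 ± 0.08 between the tissues (adjusted p = 0.336).

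C1qa and C1qb, neighbours on chromosome 4, encode chains of the C1q molecule that starts the classical complement pathway. C1qa read 9.66, 9.44 and 9.40 in APPsα-DM hippocampus and 9.65, 9.51 and 9.39 in APLP2-KO hippocampus, against 9.46, 9.62 and 9.58 in APPsα-DM cortex and 9.81, 9.54 and 9.53 in APLP2-KO cortex. C1qb probe set 1 read 9.56, 9.36 and 9.22 in APPsα-DM hippocampus and 9.45, 9.34 and 9.23 in APLP2-KO hippocampus, against 9.45, 9.52 and 9.45 in APPsα-DM cortex and 9.76, 9.31 and 9.43 in APLP2-KO cortex. For both genes APLP2-KO cortex 1 was the highest array, the tissues overlapped within each genotype and the genotypes overlapped within each tissue. Genotype differences of C1qa were -0.02 ± 0.10 in hippocampus and -0.07 ± 0.10 in cortex. For the 3 C1qb probe sets they were -0.09 to 0.04 in hippocampus and -0.03 to 0.01 in cortex. The third chain gene, C1qc, was no member but lay near the threshold between the tissues, at -0.17 ± 0.06 averaged (adjusted p = 0.0696), beside -0.08 ± 0.07 for C1qa and -0.13 to 0.001 for the C1qb probe sets.

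The array-to-array spread within groups was shared by most of the markers. Within its group, APPsα-DM hippocampus 1 was the highest of the 3 arrays for 14 of 16 probe sets, APLP2-KO hippocampus 1 for 11 and APLP2-KO cortex 1 for 12. APLP2-KO hippocampus 3 was the lowest for 12 and APPsα-DM hippocampus 3 for 11. In APPsα-DM cortex, array 2 was the highest for 10 probe sets and the lowest for 3, namely Cx3cr1 probe set 1, P2ry12 and Itgam. The mean log2 signal of the 10 genes was 8.42 ± 0.12 in APPsα-DM hippocampus, 8.46 ± 0.09 in APLP2-KO hippocampus, 8.52 ± 0.02 in APPsα-DM cortex and 8.54 ± 0.11 in APLP2-KO cortex (SD, n = 3 each), and APPsα-DM hippocampus 1 and APLP2-KO cortex 1 were 0.13 above the mean of their group. Leaving out APPsα-DM hippocampus 1 put all 10 genes below 0 between the genotypes in hippocampus, with a median of -0.08, and left 0 of 16 past the threshold. Leaving out APLP2-KO cortex 1 put 8 of 10 genes above 0 in cortex, with a median of 0.05, and without APLP2-KO cortex 2 the median was -0.09.

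**Figure D4:**
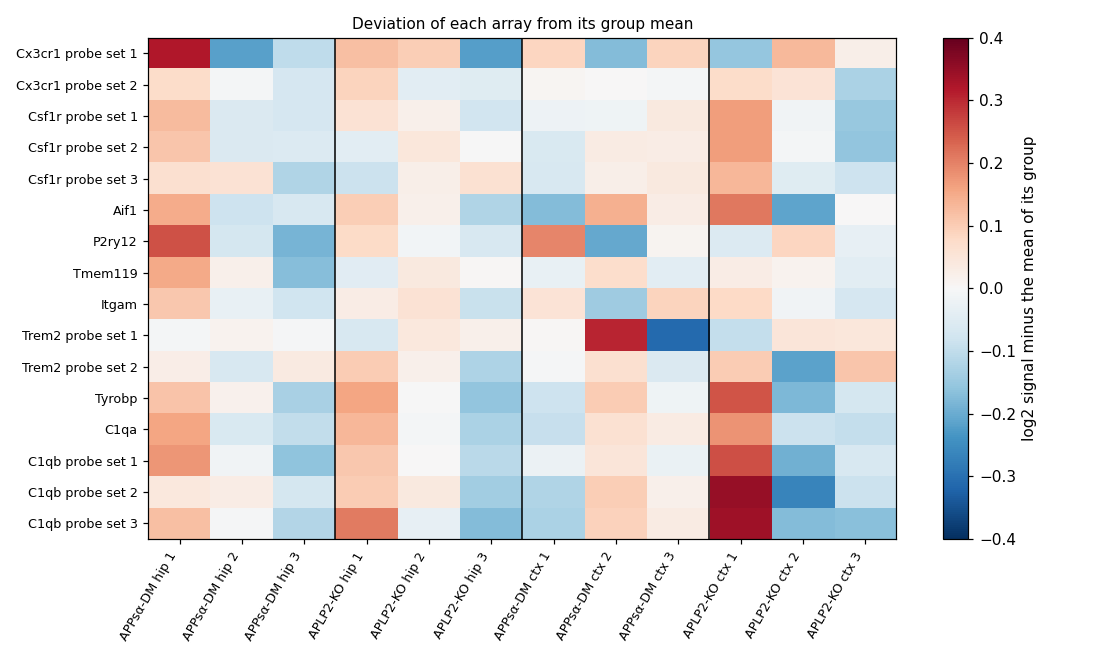
Log2 signal of each array minus the mean of its group, for the 16 microglia probe sets (rows) and 12 arrays (columns; hip is hippocampus, ctx is prefrontal cortex). Red is above the group mean and blue below; APPsα-DM hippocampus 1 and APLP2-KO cortex 1 are above the mean for 15 and 13 of the 16 probe sets.

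Over the deviations of the 12 arrays from their group means, with each gene taken by its brightest probe set, the 45 pairs of genes had a median Pearson r of 0.52, and 41 pairs were above 0. By gene, the median r with the other genes was lowest for Trem2 (0.21) and P2ry12 (0.25) and highest for Csf1r (0.74). These are descriptions: the points share arrays, normalization and the mice behind them. Close pairs were among the adaptor, complement and Aif1 genes, with r = 0.954 for Tyrobp and C1qb probe set 1, 0.929 for Tyrobp and C1qa, and 0.895 for Aif1 and Tyrobp. Cx3cr1 probe set 1, the dimmer of its gene, and P2ry12 had r = 0.818 with each other and r = 0.03 and 0.05 with Tyrobp. The brighter Cx3cr1 probe set 2 did not share this: it had r = 0.497 with P2ry12, 0.584 with Tyrobp, 0.715 with C1qa and 0.585 with C1qb probe set 1. Between brightest probe sets, pairs of genes whose promoters both hold the PU.1 core motif ranged from 0.06 (Itgam and Trem2) to 0.85 (Aif1 and C1qb). Pairs of a gene with the motif and a gene without it ranged from -0.15 (Trem2 and P2ry12) to 0.723 (Itgam and P2ry12). A link between the motif and these values was not tested. Within a gene the probe sets of C1qb tracked each other at 0.881 to 0.928, those of Csf1r at 0.547 to 0.875, and those of Cx3cr1 and Trem2 at 0.34 and 0.09.

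Among 11625 genes with a mean of at least 6, the deviations most like those of the 10-gene mean were of Ptprc, which encodes the leukocyte antigen CD45 (r = 0.993, n = 12 arrays). Gpr137b (0.957), Vstm4 (0.955), Bicc1 and Tgfbr2 (0.954 each), Tgm2 (0.952), Med28 and Dcdc2a (0.950 each) followed. Ptprc read 6.53, 6.13 and 5.97 in APPsα-DM hippocampus, 6.31, 6.19 and 5.98 in APLP2-KO hippocampus, 6.13, 6.17 and 6.12 in APPsα-DM cortex and 6.38, 5.96 and 6.00 in APLP2-KO cortex. In each group its highest array was the one with the highest mean of the markers. With the group means left in, the most alike over the 12 arrays were Prxl2c and H2az2 (r = 0.934 each), Jpt1 (0.933), Limd1 (0.916), Vamp3 (0.912), Hsd17b11 (0.911), Pgd (0.901) and Tprgl (0.898).

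Macrophages of the vessels and borders of the brain share several of the markers. Of 10 genes of these cells, 9 had a mean below 6, and their mean log2 signal was 5.02 to 5.60 in APPsα-DM hippocampus, 5.12 to 5.16 in APLP2-KO hippocampus, 5.15 to 5.25 in APPsα-DM cortex and 5.25 to 5.35 in APLP2-KO cortex. The highest value was that of APPsα-DM hippocampus 1, the array that was also highest of its group in the mean of the microglia markers, and there the mannose receptor gene Mrc1 read 6.76 against 5.67 and 5.45 on the other arrays of its group. Their part in the height of the markers on that array was not tested. Defining genes of the list were dim, with Lyve1 at 4.47 to 4.86 and Cd163 at 4.77 to 5.59. Means over monocyte and neutrophil genes (9 measured, 4.65 to 5.23) and over lymphocyte genes (11 measured, 4.80 to 5.15) stayed near the dim end, with 7 and 8 of these genes at a mean below 6.

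Genes around the markers also showed no genotype call in these lists, which were chosen with earlier results of these data known. Other microglia-enriched genes (27 measured), disease-associated microglia genes (22), complement genes (14), TREM2 and DAP12 signalling (17), microglial transcription factors (13), ligands of the microglial receptors with related genes (10), inflammatory and interferon genes (20) and border macrophage genes (10) had 0 members past the threshold in hippocampus and 0 in cortex by limma. At an unadjusted p under 0.05 (4.11% of all probe sets in hippocampus and 4.5% in cortex), hippocampus had 1 disease-associated gene (Gpnmb, 0.32 ± 0.09), 1 complement gene (C5ar1, -0.19 ± 0.08), 2 transcription factors (Ikzf1, -0.22 ± 0.07, and Smad3, 0.20 ± 0.08) and 3 genes of the ligand list (Gas6, 0.26 ± 0.10, Cd47, 0.15 ± 0.06, and the receptor gene Tgfbr2, 0.23 ± 0.10). Cortex had Lpl, a lipase gene of lipid-loaded microglia and of neurons (0.33 ± 0.08), the kinase gene Syk (0.20 ± 0.08), the receptor gene Tlr4 (-0.21 ± 0.07) and Clec10a (-0.33 ± 0.13), 1 in each of 4 lists. The other Gas6 probe set was at -0.008 in hippocampus. Of 3 other Syk probe sets in cortex, at -0.17 to 0.08, 1 shared the sign. Other probe sets of the remaining genes, where there were any, had the same sign. Of the 20 inflammatory and interferon genes, 16 had a mean below 6, and their median difference was -0.08 in hippocampus and -0.08 in cortex. Markers of other cells lay above 0 beside these values in hippocampus: genes of endothelial cells and pericytes had 11 of 11 differences above 0, with a median of 0.27, 0 called and 6 at an unadjusted p under 0.05, and choroid plexus genes had 10 of 10 above 0, with a median of 1.13, 0 called and 0 at that level. In cortex the medians of these lists were 0.10 and 0.16. Their part in the values of the microglia genes was not tested.

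Several ligands of the microglial receptors differed between the tissues. Of 10 genes in that list, 1 was higher and 4 were lower in hippocampus averaged over the genotypes (10.3% and 10.7% of all probe sets). Il34, the neuronal ligand of Csf1r, read 7.96, 7.52 and 7.81 in APPsα-DM hippocampus and 7.84, 7.85 and 7.50 in APLP2-KO hippocampus, against 8.37, 8.20 and 8.42 in APPsα-DM cortex and 8.16, 8.31 and 8.30 in APLP2-KO cortex. All hippocampus arrays were below all cortex arrays. The difference was -0.55 ± 0.09, 1.46-fold lower in hippocampus (adjusted p = 0.00049). It was -0.57 ± 0.12 in APPsα-DM (adjusted p = 0.00883) and -0.53 ± 0.12 in APLP2-KO (adjusted p = 0.0114, and 0.0516 without APLP2-KO hippocampus 3).

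Csf1, the other ligand of Csf1r, went the opposite way. It read 8.18, 8.19 and 8.09 in APPsα-DM hippocampus and 8.24, 8.20 and 8.20 in APLP2-KO hippocampus, against 7.91, 7.88 and 7.86 in APPsα-DM cortex and between 7.92 and 8.13 in APLP2-KO cortex. Within each genotype the hippocampus arrays were above the cortex arrays, and the averaged difference was 0.23 ± 0.05 (adjusted p = 0.00315). Its receptor Csf1r, by comparison, differed by -0.04 ± 0.06 in probe set 1.

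Cx3cl1, the ligand of Cx3cr1, read 11.40, 11.40 and 11.32 in APPsα-DM hippocampus and 11.34, 11.37 and 11.42 in APLP2-KO hippocampus, against 11.75, 11.57 and 11.79 in APPsα-DM cortex and 11.87, 11.96 and 11.65 in APLP2-KO cortex. No hippocampus array reached a cortex array, and the averaged difference was -0.39 ± 0.06, 1.31-fold lower (adjusted p = 0.000515), while neither probe set of its receptor passed. Its 3 other probe sets were lower too, by -0.32 to -0.29, of which 2 passed. Cd47, the ligand of Sirpa, was lower by -0.16 ± 0.04 (adjusted p = 0.0211), and Tgfb1 by -0.22 ± 0.07 (adjusted p = 0.0335). The 4 other Cd47 probe sets were at -0.20 to 0.01, with 3 of them below 0 and 1 past the threshold. With the choroid plexus covariate the adjusted p of Cd47 was 0.0888 and that of Tgfb1 0.0625, so both calls ended. Without the 2 cortex arrays of high Ttr the Tgfb1 call ended too (0.145). They also ended without single arrays: for Cd47 these were hippocampus 1 and 3 of APPsα-DM and hippocampus 1 and cortex 2 of APLP2-KO (adjusted p of 0.0509 to 0.0528). For Tgfb1 they were hippocampus 3 and cortex 2 and 3 of APPsα-DM and hippocampus 1 and 2 and cortex 1 and 3 of APLP2-KO (0.0536 to 0.0801), and its other probe set was at -0.03.

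**Figure D5:**
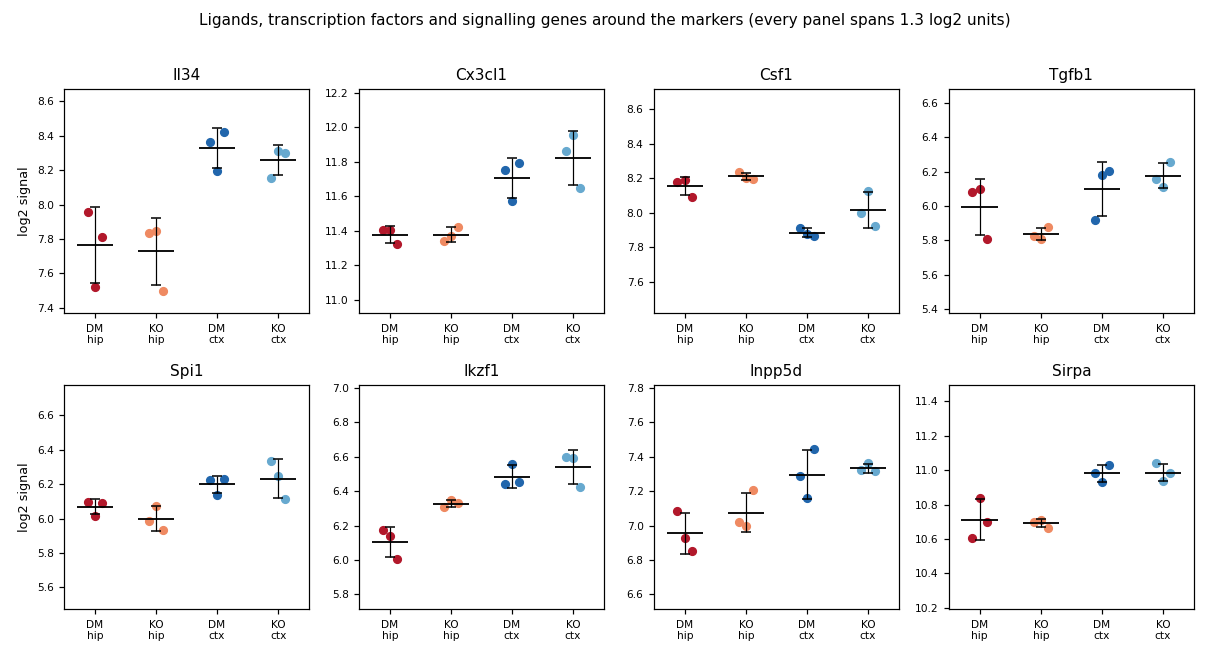
Log2 signal of ligands (Il34, Cx3cl1, Csf1, Tgfb1), transcription factors (Spi1, Ikzf1) and signalling genes (Inpp5d, Sirpa) that act around the microglia markers. DM is APPsα-DM and KO is APLP2-KO, hip is hippocampus and ctx prefrontal cortex; points are arrays, lines means and bars ± 1 SD (n = 3), and Il34 and Cx3cl1 are lower and Csf1 higher in hippocampus.

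Among transcription factors of the lineage, 3 of 13 were higher and 3 lower in hippocampus (10.3% and 10.7% of all probe sets). Spi1, which encodes PU.1, was lower by -0.18 ± 0.05 (adjusted p = 0.0232) and Ikzf1, a lymphoid and myeloid zinc finger gene, by -0.30 ± 0.05 (adjusted p = 0.00104). The Spi1 call ended without hippocampus 2 (adjusted p = 0.0513) or cortex 1 (0.0509) or 3 (0.0501) of APPsα-DM, without hippocampus 3 (0.0573) or cortex 1 (0.0538) of APLP2-KO, and with the choroid plexus covariate (0.121). Mef2c fell by far more, -1.48 ± 0.07 (adjusted p = 1.14e-08), and this gene is also expressed in cortical neurons. The genes that were higher were Smad3 (0.28 ± 0.06, adjusted p = 0.00298), Mef2a (0.23 ± 0.05, adjusted p = 0.00701) and Cebpa (0.23 ± 0.07, adjusted p = 0.0300). The Cebpa call ended without hippocampus 1 or 2 or cortex 2 or 3 of APPsα-DM, or hippocampus 3 or cortex 2 or 3 of APLP2-KO (adjusted p of 0.0536 to 0.0748), without both cortex arrays of high Ttr (0.101), with the choroid plexus covariate (0.0561) and with array weights (0.0722). Irf8 at -0.06 ± 0.06 and Sall1 at -0.12 ± 0.08 did not pass.

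In the Trem2 and Tyrobp pathway, 0 of 17 genes were higher and 2 lower in hippocampus, where 10.3% and 10.7% of all probe sets were called, so the 2 lower genes are near that share. They were Inpp5d, the phosphatase SHIP1 that dampens this signal, at -0.30 ± 0.06 (adjusted p = 0.00444), and the inhibitory receptor gene Sirpa at -0.28 ± 0.05 (adjusted p = 0.00124), which neurons express as well. Complement had 0 of 14 higher and 1 lower, the protease gene C1ra (-0.53 ± 0.12, adjusted p = 0.00584). Other microglia-enriched genes had 0 of 27 higher and 2 lower, like complement below the share of all probe sets, with a median of -0.09: Crybb1 (-0.31 ± 0.09, adjusted p = 0.0198) and the Fc receptor gene Fcgr3 (-0.20 ± 0.06, adjusted p = 0.0426). Without the 2 cortex arrays of high Ttr the adjusted p of Crybb1 was 0.0825, so its call ended. The Fcgr3 call ended without any 1 of 9 arrays, all but hippocampus 1 and cortex 3 of APPsα-DM and hippocampus 1 of APLP2-KO, with adjusted p-values of 0.0508 to 0.103. It also ended without both arrays of high Ttr (0.0997) and with the choroid plexus covariate (0.0767).

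Of the disease-associated microglia genes, 6 of 22 were higher and 2 lower in hippocampus (10.3% and 10.7% of all probe sets). Lpl was higher by 1.04 ± 0.06 (adjusted p = 7.3e-08), Gpnmb by 0.61 ± 0.06 (adjusted p = 1.42e-05), Timp2 by 0.29 ± 0.05 (adjusted p = 0.00176) and Apoe by 0.20 ± 0.05 (adjusted p = 0.00656). Mamdc2 was higher by 0.35 ± 0.08 (adjusted p = 0.00821), and this call ended with the choroid plexus covariate (0.0598). Csf1, described above, is counted in this list as well as in the ligand list. The cathepsin gene Ctsb was lower by -0.25 ± 0.04 (adjusted p = 0.000543) and Cd52 by -0.46 ± 0.12 (adjusted p = 0.0133). Lpl, Timp2, Apoe and Ctsb are made by other brain cells too, and the part of microglia in these differences was not tested. Inflammatory and interferon genes had 0 of 20 higher and 1 lower (Socs3, -0.23 ± 0.07, adjusted p = 0.0246), and border macrophage genes 1 of 10 higher (Cd36, 0.32 ± 0.10, adjusted p = 0.0410) and 0 lower, counts at or below those shares. Neither call held with the choroid plexus covariate or without the 2 cortex arrays of high Ttr. Socs3 also missed the threshold without hippocampus 3 or cortex 2 of APPsα-DM, or hippocampus 1 or 3 or cortex 2 or 3 of APLP2-KO (adjusted p of 0.0503 to 0.0653). Cd36 missed it without hippocampus 1 or any cortex array of APPsα-DM, or arrays 1 or 2 of either tissue of APLP2-KO (0.0516 to 0.0940).

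Markers of other cells were counted in the same averaged contrast, in which 10.3% of all probe sets were higher and 10.7% lower. Higher and lower counts were 4 and 2 of 10 for astrocytes, 0 and 2 of 9 for oligodendrocytes, 1 and 0 of 6 for their precursors, 0 and 1 of 10 for neurons, 0 and 3 of 11 for endothelial cells and pericytes, and 2 and 0 of 10 for smooth muscle and leptomeninges. They were 2 and 0 of 10 for choroid plexus, 8 and 0 of 10 for cilia of ependyma, 10 and 0 of 10 for hippocampal neurons, 1 and 7 of 8 for cortical neurons and 0 and 9 of 9 for striatal neurons. Monocyte and neutrophil genes had 0 and 1 of 9 and lymphocyte genes 0 and 2 of 11. Several of these counts are near those shares, and the part of the other cells in the values of the microglia markers was not tested.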

How the data were processed

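RNA of 12 mouse brain samples was measured on Affymetrix arrays. The authors deposited log2 signals. The tools named, per the submitters' processing notes, were affy and RMA (no versions). RMA in general corrects background, normalizes by quantiles and summarizes probes, and fold changes of dim probe sets tend to be understated on this scale. Control probe sets (64) were left out. Of the tested probe sets, the platform annotation gave 1 symbol to 34945, several to 932 and none to 9160, and symbols were updated through RefSeq (GRCm38.p6, 34741 matched).

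Group means of all 12 arrays were fitted with limma 3.58.1 in R 4.3.3, with Benjamini-Hochberg adjustment over 45037 probe sets and a threshold of 0.05. Errors are moderated SE unless called SD. The labels give 3 mice per genotype, with 3 arrays of each tissue, so arrays share mice, but the labels do not say which. The main tests between the tissues treated the 12 arrays as independent, and p-values measure the spread between these samples. Same-numbered cortex and hippocampus samples deviated together at r = 0.02 to 0.16 (6 pairs, all probe sets), not all over 0.1. The numbers were not used as pairs in the main tests between the tissues. They were used for the genotype effect averaged over cortex and hippocampus arrays of the same number. A list gene is its probe set with the highest mean. The members, lists and tests were chosen with earlier results of these data known. All probe sets of the members are named. Genes named from other lists were taken from those past the threshold, up to 4 with the smallest p, or defining genes. For lists of other cells mostly counts or means are given. List genes with no probe set of 1 symbol were not analysed here. The test was checked on simulated data. The number of arrays limits precision, and over all probe sets genotype differences had a median SE of 0.0938. Leaving out the high-Ttr arrays and the choroid covariate were chosen after seeing the data.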

Additional observations from a re-analysis of the deposited data

How the results depend on the processing

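With 3 arrays per group, the members' genotype results held: 0 of 16 probe sets passed in hippocampus, in cortex, in their difference or in the averaged effect under any setting. With 1 array left out, the median of the 10 genes was -0.08 to 0.01 in hippocampus and -0.094 to 0.052 in cortex (lowest without APLP2-KO cortex 2, highest without APLP2-KO cortex 1), so its sign is not settled.

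Tissue counts moved. In APPsα-DM 0 to 1 probe set passed with 1 array left out (median -0.181 to -0.048) and 1 with the choroid plexus covariate. In APLP2-KO the count was 1, in place of 0, with renewed quantile normalization, without dim probe sets, with intensity trend and robust variances, with array weights, with only the arrays compared and with the replicate block, and 0 to 1 with 1 array left out. Averaged over the genotypes it was 2, in place of 1, with renewed quantile normalization, without dim probe sets, with trend and robust variances and with array weights, 0 without the 2 high-Ttr cortex arrays, 0 with the choroid covariate and 0 to 2 with 1 array left out.

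The replicate block, which treats the shared number as a pair, put Cx3cr1 probe set 1 past the threshold (adjusted p = 0.0378 in APLP2-KO, 0.0313 averaged) and took Aif1 out (0.0509). Of 12 samples, 11 correlated best with their own number, a hint from the data and not the design.

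Of 3468 alternatives of single probe sets, 22 gained and 141 lost a call, none reversed a called value, and 151 changed sign while past the threshold in neither. Causes were not tested.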
